A study of Mus musculus with 6 samples.

Results

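The 10 RNAs described here are long noncoding RNAs measured in nuclei, among them host transcripts of microRNAs: Malat1, Neat1, Meg3, Rian, Mirg, Kcnq1ot1, H19, Gas5, Mir1a-1hg and Dnm3os. They were chosen by gene symbol from the 26332 genes with values in the deposited table of normalized counts, and all 10 were found there. All 10 were also among the 14584 genes tested, those with 3 or more libraries at 10 normalized counts or above. The study sequenced nuclear RNA from mice aged 8 to 12 weeks, comparing 3 animals of genotype Prrx1(R1A)-/- with 3 animals labelled control. The labels name R1A as the allele and the series title speaks of a noncoding region regulating Prrx1, a mesenchymal homeobox factor. Left and right atria of an individual were processed together, and nuclei were sorted for PCM1, a protein found around cardiomyocyte nuclei. What R1A alters, the strain and the sex are not stated in the sources used here.

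Malat1 is an abundant RNA of nuclear speckles, the bodies that hold splicing factors, and Neat1 is the scaffold RNA of paraspeckles. Meg3, Rian and Mirg are expressed from the maternal chromosome in the imprinted Dlk1-Dio3 region and carry microRNAs and, in Rian, small nucleolar RNAs. H19 is the maternally expressed partner of the growth factor gene Igf2, and Kcnq1ot1 is a paternally expressed RNA that silences genes beside it. Gas5 hosts small nucleolar RNAs in its introns. Mir1a-1hg is the host of Mir1a-1 and Mir133a-2, whose microRNAs are abundant in heart and skeletal muscle. Dnm3os lies antisense within Dnm3, hosts Mir199a-2 and Mir214, and is known from mesenchymal and skeletal tissue.

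Libraries held 11878824 to 14658584 reads in the Prrx1(R1A)-/- group and 10580961 to 12080965 in controls. Ribosomal RNA took 26.7% to 39.8% of reads in Prrx1(R1A)-/- libraries and 46.5%, 12.0% and 17.9% in control replicates 1, 2 and 3. Markers fixed for cardiomyocytes, 15 genes such as Tnnt2 and Myh6, summed to 844015 to 1552675 normalized counts in Prrx1(R1A)-/- libraries against 318080 to 610261 in controls. The 15 fibroblast markers, collagen and proteoglycan genes among them, summed to 39177 to 43645 in Prrx1(R1A)-/- libraries against 53525 to 87873 in controls. The 15 immune markers summed to 9168 to 12019 in Prrx1(R1A)-/- libraries against 10207 to 22297 in controls. All 15 markers of each of these 3 lists were detected in every library. Control replicate 1 stood apart, with the lowest cardiomyocyte sum and the highest fibroblast sum of the 6 libraries. Results are given with and without it where it changes them. Abundant genes weigh most in these sums, above all Ttn among the cardiomyocyte markers (mean 640141 over the 6 libraries). Single markers did not all place this library so. In control replicates 1, 2 and 3, Myh6 had 52575, 48659 and 60467 counts, Tnnt2 12132, 11348 and 18455, and Dcn 7585, 9465 and 6103. Prrx1 itself had 200.8, 194.4 and 182.9 normalized counts in Prrx1(R1A)-/- libraries against 415.2, 334.8 and 282.1 in controls, so the groups did not overlap (log2 fold change −0.82 ± 0.25, SE; adjusted p = 0.27 by limma).

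MicroRNAs carried by Mir1a-1hg, Dnm3os and H19, the hosts of microRNAs that some settings called, are printed as examples of the products of such transcripts. They are mature microRNAs from RefSeq (GRCm38.p6), written 5′ to 3′, with the seed, bases 2 to 8, in capitals. The RefSeq table gave 35 mature microRNAs from 19 hairpins in 6 of the 10 hosts, with 34 distinct seeds among them. For Mir1a-1hg it gave 1 mature microRNA from 1 hairpin, Mir1a-1. Other products of that host, those of Mir133a-2 among them, had no entry and are not printed. These counts therefore need not cover all microRNAs of the hosts. The entry of Mir1a-1hg (chr2:180389057-180389079, plus strand), those of Dnm3os (chromosome 1, plus strand) and those of H19 (chromosome 7, minus strand) were
mmu-miR-1a-1-5p: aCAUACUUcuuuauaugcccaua
mmu-miR-199a-5p: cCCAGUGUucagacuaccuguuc
mmu-miR-199a-3p: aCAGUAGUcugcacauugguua
mmu-miR-214-5p: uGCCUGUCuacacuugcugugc
mmu-miR-214-3p: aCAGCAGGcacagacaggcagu
mmu-miR-675-5p: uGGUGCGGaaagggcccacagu
mmu-miR-675-3p: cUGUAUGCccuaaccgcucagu

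No 2 of these 7 shared a seed. Of the 1679 mature microRNAs in the RefSeq table, mmu-miR-199b-3p had the seed of mmu-miR-199a-3p and mmu-miR-761 that of mmu-miR-214-3p. The pair of microRNAs in one host that did share a seed lies in Mirg, on the plus strand of chromosome 12, and is shown for that reason:
mmu-miR-453: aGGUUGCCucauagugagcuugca
mmu-miR-496a-5p: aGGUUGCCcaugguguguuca

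The values below are reads assigned to host transcripts, and levels of mature microRNAs are not analysed here. Of the 19 hairpins, 18 had a row of their own in the table. The hairpin rows of Dnm3os, H19 and Meg3 were listed at 0 in every library, which allows up to 3 reads, or 2.22 to 3.77 normalized counts, in a library. The hairpin row of Mir1a-1 had 23.9, 1.20 and 0 normalized counts in Prrx1(R1A)-/- libraries against 1.26, 3.0 and 2.97 in controls, so a single library was well above that limit.

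Malat1 was the most abundant gene outside ribosomal RNA, and its level was higher in each Prrx1(R1A)-/- library than in each control, although the difference did not pass the test. Malat1 (identifier 72289) is encoded on chromosome 19, minus strand, at 5795690 to 5802672 in GRCm38.p6. It had 1649193, 2110317 and 1741723 normalized counts in Prrx1(R1A)-/- libraries against 1348566, 1082934 and 1099654 in controls. As a share of reads that were not ribosomal RNA, a measure that does not use the scaling of the table, Malat1 took 17.4%, 20.7% and 19.5% in Prrx1(R1A)-/- libraries against 16.6%, 15.5% and 15.1% in controls. The groups did not overlap on either scale. The log2 fold change was 0.64 with a standard error of 0.60 (95% interval −0.68 to 1.95, adjusted p = 0.70 by limma). That standard error draws on other genes of similar level, and from the spread of the 6 Malat1 values alone it was 0.15. Scaling to reads other than ribosomal RNA and Malat1 gave 0.35. Quantile scaling, which gives every library the same distribution, turned the value to −0.53. It sets each value by the gene's rank in its library, so it does not measure the size of a difference at the top ranks. Malat1 had more reads than ribosomal RNA in control replicate 2 (1445910 against 1268964) and fewer in every other library. Set against the summed cardiomyocyte markers, Malat1 had log2 ratios of 0.27, 0.44 and 1.05 in Prrx1(R1A)-/- libraries against 2.08, 1.22 and 0.85 in controls, so on that scale the groups overlapped and the mean was lower in Prrx1(R1A)-/- libraries.

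Neat1, 22.0 kb from Malat1, showed a difference of similar size. Its gene (identifier 66961) lies on the same strand of chromosome 19, from 5824708 to 5845480. Neat1 had 10219, 12079 and 9734 normalized counts in Prrx1(R1A)-/- libraries against 8936, 5124 and 6336 in controls. All Prrx1(R1A)-/- libraries lay above all controls, the nearest control being replicate 1. The log2 fold change was 0.68 ± 0.25 (SE; adjusted p = 0.33 by limma), and 0.90 with an adjusted p of 0.0085 without control replicate 1. It was smaller under other settings: 0.28 with quantile scaling and 0.39 with scaling to reads other than ribosomal RNA and Malat1. With ribosomal RNA as a covariate, taken as the count of Rn45s alone, it was 0.45. The ratio of Neat1 to the summed cardiomyocyte markers was −7.07, −7.01 and −6.44 (log2) in Prrx1(R1A)-/- libraries against −5.15, −6.51 and −6.59 in controls.

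**Figure D1:**
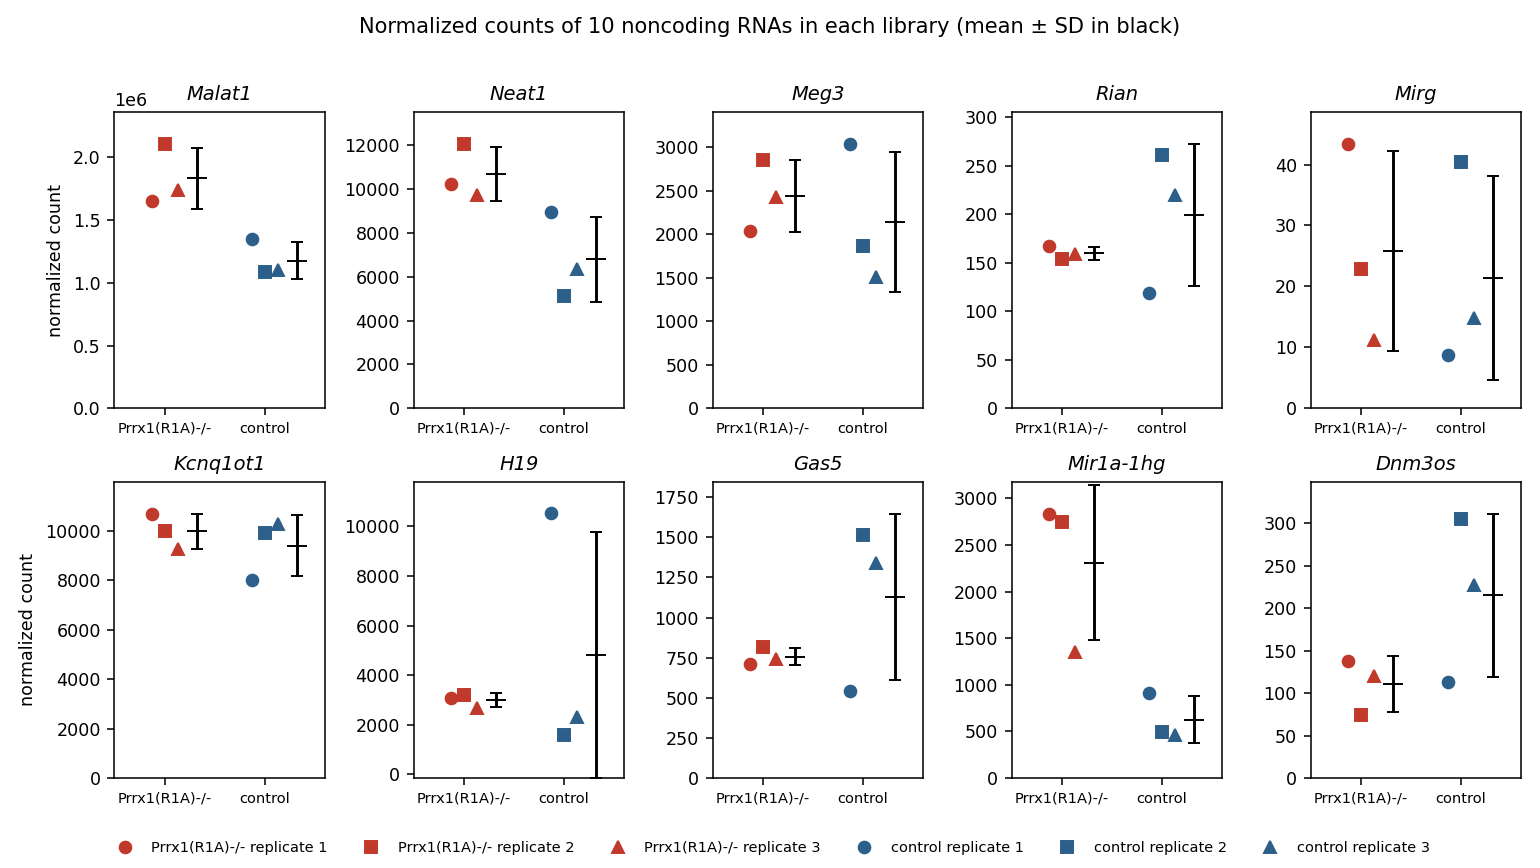
Normalized counts (linear axes) of the 10 RNAs in the 3 Prrx1(R1A)-/- libraries (red, left) and the 3 control libraries (blue, right), with symbols for replicates 1 to 3 and black bars for mean ± SD. The groups do not overlap for Malat1, Neat1 and Mir1a-1hg, and control replicate 1 is the highest library for H19 at 10533 and the lowest for Gas5 at 541.1.

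Proteins of the bodies these 2 RNAs occupy were measured at the RNA level. Among 20 genes of nuclear speckle and splicing proteins, the median log2 fold change was 0.32, and 0 passed the test. With p below 0.05 before adjustment there were 5 higher and 0 lower, where 6.67% of all genes were higher and 5.25% lower. Srrm1, a coactivator of splicing, had 5791 ± 363 normalized counts in Prrx1(R1A)-/- libraries against 3307 ± 807 in controls (SD, n = 3 each). Srsf11, an SR-related splicing protein, had 4486 ± 303 in Prrx1(R1A)-/- libraries against 2485 ± 806 in controls. Among 18 measured genes of paraspeckle proteins the median was 0.25, with 0 passing. Smarca4, a chromatin remodelling ATPase, had 2507, 2852 and 2461 counts in Prrx1(R1A)-/- libraries against 2456, 1460 and 1740 in controls. The median over all genes tested was −0.0036. Without control replicate 1 it was −0.0071, and the medians were 0.32 for the speckle list and 0.019 for the paraspeckle list. Of the paraspeckle list, 2 then passed as higher and 1 as lower, against 6.1% and 3.06% of all genes.

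Mir1a-1hg had the largest difference of the 10 RNAs. The gene (identifier 622283) lies on the plus strand of chromosome 2 from 180385604 to 180401802. It had 2837, 2745 and 1349 normalized counts in Prrx1(R1A)-/- libraries against 916.0, 494.3 and 467.2 in controls. The lowest Prrx1(R1A)-/- library, replicate 3, lay above the highest control, replicate 1. The log2 fold change was 1.88 ± 0.33 (SE; 95% interval 1.15 to 2.61), with an adjusted p of 0.094 by limma, so it did not pass at 0.05. None of the 10 RNAs passed this test, against 0.0137% of all genes tested. At an unadjusted p under 0.05 were 3 of the 10, Mir1a-1hg and Neat1 higher and Dnm3os lower. Of all genes, 6.67% were higher and 5.25% lower at that threshold. DESeq2 called Mir1a-1hg alone of the 10 (adjusted p = 6.9e-05), against 2.13% of genes with an adjusted p in that fit, while edgeR gave an adjusted p of 0.10. The authors' deposited table lists Mir1a-1hg at 1.59 on the log2 scale (adjusted p = 4.1e-05). Over the 17 alternatives the log2 fold change stayed between 1.58 and 2.23.

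Mir1a-1hg and the summed cardiomyocyte markers both had higher means in Prrx1(R1A)-/- libraries, but within the genotypes they did not keep the same order. Control replicate 1 had the highest Mir1a-1hg of the controls and the lowest marker sum, but not the lowest Myh6 or Tnnt2. The median log2 fold change of the 15 markers was 1.15. At an unadjusted p under 0.05, 8 of 15 were higher, against 6.67% of all genes, and 0 passed over all genes. The median was 0.96 without control replicate 1, and 7 then passed, all higher, against 6.1% of all genes. Divided by the summed markers, Mir1a-1hg had log2 ratios of −8.92, −9.14 and −9.29 in Prrx1(R1A)-/- libraries against −8.44, −9.88 and −10.35 in controls. The groups overlapped on this scale because control replicate 1 had the highest ratio of the 6. Ttn weighs most in the summed markers, and a ratio to the other markers alone was not tested. In such bulk samples a larger share of cardiomyocyte nuclei and more RNA per nucleus cannot be told apart, and the part of the markers in the difference was not tested. Mir1a-1hg overlaps B230312C02Rik, on the opposite strand, over 282 bases, and this library method does not keep strand. That partner had 27.1, 26.4 and 19.2 normalized counts in Prrx1(R1A)-/- libraries against 49.1, 13.5 and 14.8 in controls, far below Mir1a-1hg on the same scale of counts.

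Dnm3os differed in the other direction. The gene (identifier 474332) lies on the plus strand of chromosome 1 from 162217623 to 162225550, in an intron of Dnm3, with which it shares 0 exonic bases. Dnm3os had 137.9, 74.4 and 120.3 normalized counts in Prrx1(R1A)-/- libraries against 113.2, 304.8 and 227.7 in controls. The groups overlapped because control replicate 1 was as low as the Prrx1(R1A)-/- libraries. The log2 fold change was −0.88 ± 0.40 (SE; unadjusted p = 0.047 and adjusted p = 0.41 by limma). Without control replicate 1 it was −1.29 with an adjusted p of 0.027, whereas it was −0.58 without control replicate 2 and −0.45 with ribosomal RNA as a covariate, neither of which passed. In the authors' deposited table it is −0.76 with an adjusted p of 0.26. Dnm3, the gene of a dynamin on the other strand whose intronic reads cannot be separated without strand, had 153.1, 129.6 and 183.9 counts in Prrx1(R1A)-/- libraries against 220.2, 179.8 and 154.2 in controls.

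Beside Dnm3os, fibroblast markers had a median log2 fold change of −0.64, and all 15 were below 0. At an unadjusted p under 0.05, 9 of 15 were lower, against 5.25% of all genes, and 0 passed over all genes. The median was −0.38 without control replicate 1, and 7 then passed, all lower, against 3.06% of all genes. Immune markers moved likewise, with a median of −0.64, all 15 below 0 and 7 of 15 lower at an unadjusted p under 0.05. Without control replicate 1 their median was −0.46, and 0 passed. Of the fibroblast markers, Dcn, a collagen-binding proteoglycan, had 3296 ± 636 counts in Prrx1(R1A)-/- libraries against 7717 ± 1685 in controls (SD, n = 3 each). The log2 ratio of Dnm3os to the summed fibroblast markers was −8.31, −9.08 and −8.35 in Prrx1(R1A)-/- libraries against −9.60, −7.63 and −7.88 in controls. On this scale too the groups overlapped, with control replicate 1 lowest of the 6, and the part of fibroblast RNA in the difference was not tested.

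**Figure D2:**
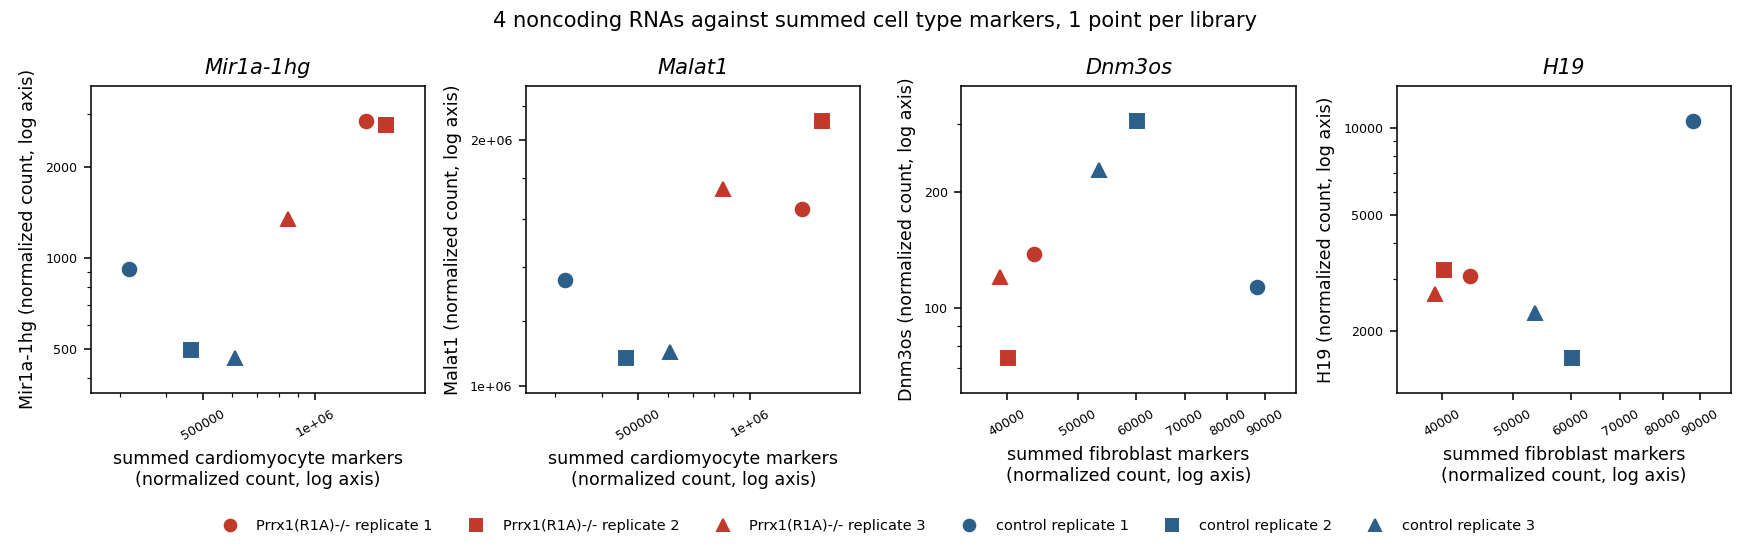
Normalized counts of Mir1a-1hg, Malat1, Dnm3os and H19 (vertical, log axes) against the summed cardiomyocyte or fibroblast markers of the same library (horizontal, log axes), 1 point per library. Prrx1(R1A)-/- libraries lie between 844015 and 1552675 in summed cardiomyocyte markers and controls between 318080 and 610261, and control replicate 1 lies apart at the top of the fibroblast axis with 87873.

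Reported targets of the microRNAs carried by both hosts were also counted. Of all genes, 6.67% were higher and 5.25% lower with p below 0.05 before adjustment. Without control replicate 1, 6.1% of all genes passed as higher and 3.06% as lower. For the microRNAs of Mir1a-1 and Mir133a-2, 35 of 38 listed targets were tested, with a median log2 fold change of −0.096. With p below 0.05 before adjustment, 5 were higher and 4 lower, and 0 passed. This list was not chosen by the seed of mmu-miR-1a-1-5p, the 1 mature entry of Mir1a-1hg printed above. Without control replicate 1 the median was −0.022, and 5 passed as higher and 5 as lower. Kcnh2, a potassium channel of repolarization, had 692.6 ± 62.8 counts in Prrx1(R1A)-/- libraries against 267.8 ± 91.0 in controls. Hdac4, a histone deacetylase that represses muscle genes, had 1633 ± 86.4 counts in Prrx1(R1A)-/- libraries against 937.3 ± 196 in controls. For mmu-miR-199a and mmu-miR-214, all 24 listed targets were tested, with a median of 0.17, 0 higher and 2 lower with p below 0.05 before adjustment, and 0 passing. With control replicate 1 left out the median was 0.10, and 1 passed as higher and 3 as lower. The 2 lower with all libraries were Cav1, the caveolin of endothelium and fibroblasts (1129 ± 64.4 counts in Prrx1(R1A)-/- libraries, 1786 ± 458 in controls), and Rb1, the retinoblastoma cell cycle repressor (271.4 ± 18.3 in Prrx1(R1A)-/- libraries, 420.6 ± 98.7 in controls). Genes of microRNA processing had a median of −0.023 over 19 tested, with 0 at an unadjusted p under 0.05, and 1 higher and 1 lower passed without control replicate 1. Tnrc6c, a partner of Argonaute proteins, had 2367 ± 50.8 counts in Prrx1(R1A)-/- libraries against 1894 ± 628 in controls, and Prkra, a partner of Dicer, had 36.7 ± 17.1 in Prrx1(R1A)-/- libraries against 57.1 ± 10.2 in controls.

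Meg3, Rian and Mirg lie in a row on the plus strand of chromosome 12, at 109540996 to 109571729, 109603945 to 109661716 and 109734981 to 109749458 (identifiers 17263, 75745 and 100040724). Their values overlapped between the genotypes and none passed the test. Meg3 had 2031, 2851 and 2431 normalized counts in Prrx1(R1A)-/- libraries against 3040, 1861 and 1505 in controls (log2 fold change 0.24 ± 0.27, SE). Rian had 167.2, 153.6 and 158.7 in Prrx1(R1A)-/- libraries against 118.3, 260.6 and 219.5 in controls (−0.24 ± 0.33). The 3 Prrx1(R1A)-/- values of Rian were close together, and the controls lay on both sides of them. Mirg was low, with 43.4, 22.8 and 11.1 in Prrx1(R1A)-/- libraries against 8.81, 40.4 and 14.8 in controls (0.33 ± 0.71), which rest on 7 to 54 reads per library. Leaving out 1 library gave 0.022 to 0.53 for Meg3 and −0.58 to −0.013 for Rian.

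The ratios within this region, which a single scaling factor per library hardly moves, overlapped between the genotypes with all libraries. The log2 ratio of Rian to Meg3 was −3.91 ± 0.31 in Prrx1(R1A)-/- libraries and −3.42 ± 1.08 in controls (SD, n = 3 each), a difference of −0.48 (two-sided exact permutation p = 0.4, where 0.1 is the smallest that 3 against 3 allows). The ratio of Mirg to Meg3 was −6.69 ± 1.08 in Prrx1(R1A)-/- libraries and −6.78 ± 1.40 in controls, a difference of 0.089 (exact permutation p = 1). Control replicate 1 had the lowest ratio of the 6 libraries for both. Without it, the difference for Rian to Meg3 was −1.11, with all 3 Prrx1(R1A)-/- libraries below both remaining controls (exact permutation p = 0.1, the smallest that 3 against 2 allows). That for Mirg to Meg3 was −0.66 without it. Of the other genes of the region, 8 were tested, with a median log2 fold change of 0.44 and 0 passing. At an unadjusted p under 0.05, 2 were higher, against 6.67% of all genes. Begain, a guanylate kinase-associated protein gene 473 kb from Meg3, had 53.2, 39.6 and 50.5 counts in Prrx1(R1A)-/- libraries against 17.6, 16.5 and 23.0 in controls, and Wdr25, a WD repeat gene, had 34.0 ± 2.41 in Prrx1(R1A)-/- libraries against 11.8 ± 8.13 in controls. 

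The value of H19 turned on 1 library. H19 (identifier 14955) is encoded on chromosome 7, minus strand, at 142575530 to 142578146. H19 had 3081, 3223 and 2679 normalized counts in Prrx1(R1A)-/- libraries against 10533, 1612 and 2307 in controls. Control replicate 1 was far above the rest, and the other 2 controls lay below all Prrx1(R1A)-/- libraries. The log2 fold change was −0.19 ± 0.52 (SE; adjusted p = 0.92 by limma) with all libraries. It was 0.63 with an adjusted p of 0.047 without control replicate 1, and −1.01 with an adjusted p of 0.032 with ribosomal RNA as a covariate, so the sign depended on the setting. Igf2, which encodes a fetal growth factor and shares its enhancers with H19, had 8009, 6053 and 5488 counts in Prrx1(R1A)-/- libraries against 19083, 4868 and 7006 in controls, also highest in control replicate 1. The ratio of H19 to Igf2 was 0.385, 0.532 and 0.488 in Prrx1(R1A)-/- libraries against 0.552, 0.331 and 0.329 in controls, and the groups overlapped.

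**Figure D3:**
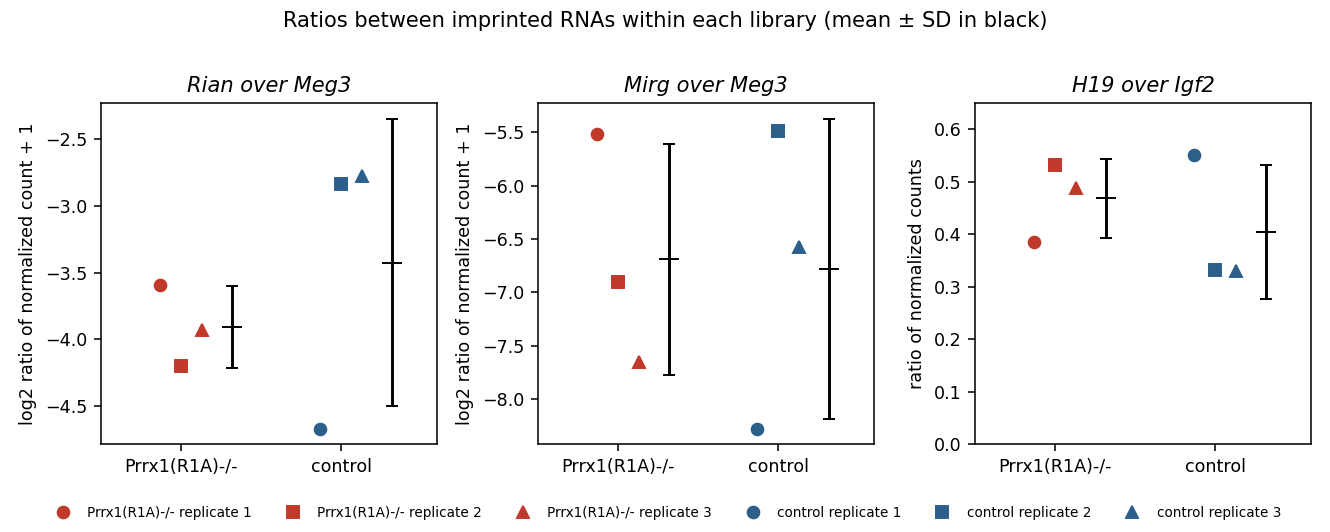
Ratios between imprinted RNAs in each library: log2 of Rian over Meg3 and of Mirg over Meg3, and the linear ratio of H19 over Igf2, with black bars for mean ± SD of 3 libraries. The genotypes overlap in all 3 panels, and control replicate 1 is lowest for Rian over Meg3 at −4.67 and highest for H19 over Igf2 at 0.552.

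Kcnq1ot1 showed the smallest difference of the 10. Kcnq1ot1 (identifier 63830) is encoded on chromosome 7, minus strand, at 143213111 to 143296547, antisense to the potassium channel gene Kcnq1. Kcnq1ot1 had 10704, 9978 and 9266 normalized counts in Prrx1(R1A)-/- libraries against 7996, 9925 and 10293 in controls. The values overlapped, with a log2 fold change of 0.092 ± 0.21 (SE; 95% interval −0.37 to 0.56) and an adjusted p of 0.89 by limma. Kcnq1 had 142.2, 106.8 and 94.0 counts in Prrx1(R1A)-/- libraries against 45.3, 53.2 and 90.5 in controls, so its groups did not overlap, with a log2 fold change of 0.89 ± 0.38 (adjusted p = 0.38 by limma). Exons of Kcnq1 cover 121 bases of Kcnq1ot1, 0.130% of its annotated length, and intronic Kcnq1 reads cannot be told from Kcnq1ot1 reads without strand. Among the 13 tested genes of the H19 to Kcnq1 region the median was −0.016. Of these, Kcnq1 alone was at an unadjusted p under 0.05, where 6.67% of all genes were higher and 5.25% lower. Lsp1, an actin-binding protein of leukocytes, had the next smallest p, with 3549 ± 715 counts in Prrx1(R1A)-/- libraries against 2450 ± 1216 in controls. Without control replicate 1 the median of the 13 was 0.14, and 1 passed, Lsp1, as higher, against 6.1% of all genes. Among 27 tested imprinted genes from other regions the median was 0.074, with 1 higher and 2 lower with p below 0.05 before adjustment. The 2 lower were Ndn, the growth suppressor necdin, with 55.8 ± 0.54 counts in Prrx1(R1A)-/- libraries against 110.6 ± 13.8 in controls, and Sgce, a sarcoglycan, with 92.7 ± 18.7 in Prrx1(R1A)-/- libraries against 170.3 ± 42.6 in controls.

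Gas5 was lower on average, again with control replicate 1 apart. The gene (identifier 14455) lies on the plus strand of chromosome 1 from 161034601 to 161038539. Gas5 had 712.2, 818.3 and 739.8 normalized counts in Prrx1(R1A)-/- libraries against 541.1, 1511 and 1338 in controls. Control replicates 2 and 3 lay above all Prrx1(R1A)-/- libraries and control replicate 1 below them. The log2 fold change was −0.45 ± 0.34 (SE; adjusted p = 0.62 by limma), and −0.91 with an adjusted p of 0.0084 without control replicate 1. It was −0.17 without control replicate 2, −0.26 without control replicate 3 and −0.74 with scaling to reads other than ribosomal RNA and Malat1, and with ribosomal RNA as a covariate its sign changed, to 0.021. Other hosts of small nucleolar RNAs had a median of −0.13 over 25 tested, and of −0.56 without control replicate 1, where 0 passed. With p below 0.05 before adjustment, 0 were higher and 1 lower, against 6.67% and 5.25% of all genes. Epb41l4aos, the 1 lower, had 8.23 ± 4.50 counts in Prrx1(R1A)-/- libraries against 37.0 ± 7.20 in controls, and Snhg18 had 108.3 ± 31.7 in Prrx1(R1A)-/- libraries against 156.4 ± 41.1 in controls.

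**Figure D4:**
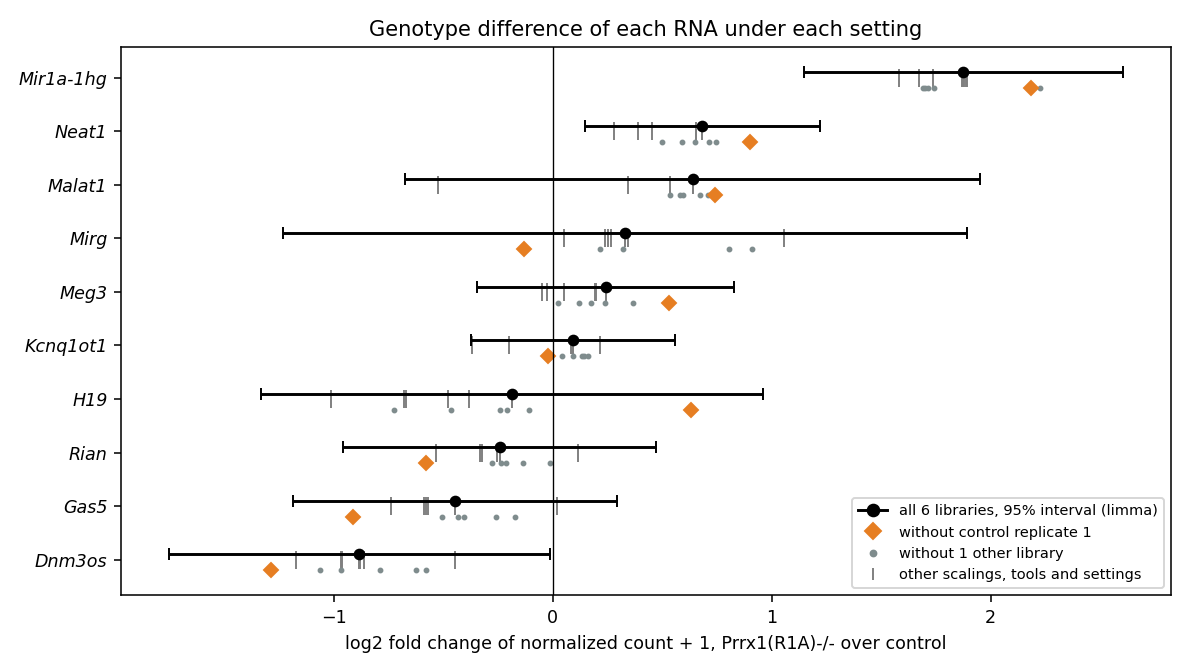
Log2 fold change of normalized count + 1, Prrx1(R1A)-/- over control, for each RNA: black points with 95% intervals from limma on all 6 libraries, orange diamonds without control replicate 1, grey dots without 1 other library and grey ticks for the other settings. Mir1a-1hg lies between 1.58 and 2.23 under every setting shown, while H19 lies on both sides of 0, from −1.01 to 0.63.

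Counts of the 10 RNAs past a threshold differed with control replicate 1. With all libraries, 3 of 10 had groups that did not overlap with Prrx1(R1A)-/- above, against 8.89% of all genes, and 0 had Prrx1(R1A)-/- below, against 8.36%. Without control replicate 1, limma called 5 of the 10, Mir1a-1hg, Neat1 and H19 higher and Gas5 and Dnm3os lower, against 9.16% of all genes (6.1% higher and 3.06% lower). With ribosomal RNA as a covariate it called 2 of the 10, Mir1a-1hg and H19, against 2.99% of all genes. Leaving out any other single library gave 0 of the 10. Among 22 other long noncoding and microRNA host RNAs the median log2 fold change was 0.084 with all libraries. Of these 1 passed, Mhrt, a heart RNA antisense to cardiac myosin genes (log2 fold change 2.12 ± 0.26, SE; adjusted p = 0.039 by limma). Where those genes overlap Mhrt, their reads cannot be told from Mhrt reads, as this library method does not keep strand. Without control replicate 1 the median was 0.036, and 3 passed, all higher: Mhrt, Rmrp and Rpph1.

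Levels of different RNAs can be compared only per length, and 9 of the 10 had an exon length in GENCODE M21, Mir1a-1hg not among them. These lengths join the exons of all transcripts of a gene, and the annotation used for the counts, not given, may differ. The joined length was 93092 bases for Kcnq1ot1, above its RefSeq span of 83437. For Gas5 it was 3760 bases, of a span of 3939. The levels per kb and their order depend on these lengths. In normalized counts per kb of exon, Malat1 had 262601 ± 34934 in Prrx1(R1A)-/- libraries and 168560 ± 21305 in controls (SD, n = 3 each). H19 followed with 1217 ± 115 in Prrx1(R1A)-/- libraries and 1958 ± 2017 in controls, then Neat1 with 514.1 ± 59.6 in Prrx1(R1A)-/- libraries and 327.3 ± 93.8 in controls. Gas5 had 201.3 ± 14.6 per kb in Prrx1(R1A)-/- libraries and 300.6 ± 138 in controls, Meg3 134.8 ± 22.7 in Prrx1(R1A)-/- libraries and 118.0 ± 44.4 in controls, and Kcnq1ot1 107.2 ± 7.72 in Prrx1(R1A)-/- libraries and 101.0 ± 13.3 in controls. The lowest were Dnm3os with 17.4, 9.38 and 15.2 per kb in Prrx1(R1A)-/- libraries and 14.3, 38.4 and 28.7 in controls, Rian with 8.76 ± 0.377 in Prrx1(R1A)-/- libraries and 10.9 ± 4.02 in controls, and Mirg with 3.54 ± 2.24 in Prrx1(R1A)-/- libraries and 2.93 ± 2.30 in controls. In Prrx1(R1A)-/- libraries the ranges of neighbours in this order overlapped for Meg3 and Kcnq1ot1, and for no other neighbours. In controls they overlapped for Neat1 and Gas5, Gas5 and Meg3, Meg3 and Kcnq1ot1, and Dnm3os and Rian. Malat1 made up 98.4% ± 0.166 of the reads of all 10 RNAs in Prrx1(R1A)-/- libraries and 97.9% ± 0.217 in controls, and the other 9 together took 0.309% ± 0.0103 of reads outside ribosomal RNA in Prrx1(R1A)-/- libraries and 0.337% ± 0.0511 in controls.

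**Figure D5:**
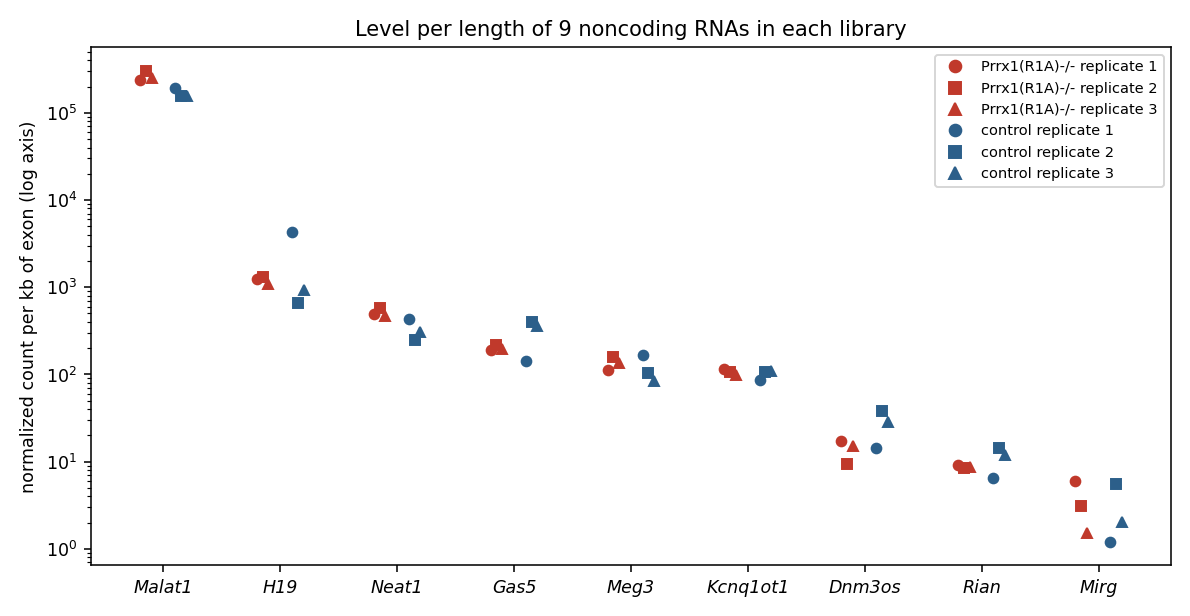
Normalized counts per kb of annotated exon (log axis) of 9 RNAs in each library, ordered by their mean over the 6 libraries, Prrx1(R1A)-/- in red left of control in blue. Malat1 stands at 155081 or above in all libraries, and no value of another RNA exceeds 4282.

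The genes whose pattern over the 6 libraries was most like that of 3 of these RNAs were found among 8425 genes with a mean normalized count of at least 100, as the smallest root mean square difference of centred log2 values. For Mir1a-1hg they were Mhrt (0.21), Krba1 (0.33) and Gm5105 (0.34). Mhrt had 4865, 4282 and 2612 counts in Prrx1(R1A)-/- libraries against 1101, 782.7 and 769.0 in controls, with replicate 3 lowest of the Prrx1(R1A)-/- libraries as for Mir1a-1hg. The strand limit given above for Mhrt holds for these counts too. For Dnm3os they were Ctsl, a lysosomal cathepsin (0.079), Cyyr1 (0.13) and Ppp2cb, a catalytic subunit of protein phosphatase 2A (0.14). Ctsl had 317.0, 165.6 and 280.0 counts in Prrx1(R1A)-/- libraries against 257.9, 611.9 and 543.5 in controls. For Meg3 they were Adcy3, an adenylyl cyclase (0.075), Dock2, a guanine exchange factor of leukocytes (0.085), and Tmem104 (0.087). All 3 were highest in control replicate 1, as Meg3 was.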

How the data were processed

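STAR, DESeq2 and the build mm10 are named by the authors, per the submitters' processing notes. The read counter, annotation and tool versions were not given in the sources used here. Libraries were prepared with the Ovation RNA-seq System V2, per the labels' protocols. The deposited expression table holds a signal per gene and library, which its sheet name calls normalized counts. From the values, it is reads times 1 factor per library: every value above 0 but 1 (Prrx1 in 1 control) was a whole number of reads within 0.01 (99.999%), so reads were recovered and rounded for the count tools. A further 847 entries without values were left out. The authors' deposited comparison table gives a log2 fold change with its standard error, a Wald score, a p-value and a −log10 adjusted p, for 1900 genes.

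Genes with at least 10 normalized counts in at least 3 libraries were tested with limma-trend (limma 3.58.1, R 4.3.3) on log2 of normalized count + 1. The test was two-sided with genotype as the single term and Benjamini-Hochberg adjustment over the 14584 genes. Alternatives, including edgeR 4.0.16 and DESeq2 1.42.0, are given below. The ribosomal RNA covariate was log2 of the normalized count + 1 of Rn45s alone, not the ribosomal RNA share of reads. P-values measure the spread between animals, 1 library each. The fits were tested on simulated data. The scaling without ribosomal RNA and Malat1, the marker ratios, the H19 to Igf2 ratio and the nearest measured neighbours were chosen after these values were seen. The members, lists and tests were chosen with earlier results of these data known. From each list the text names members past the threshold, or the 2 with the smallest p; some are not reported here. Positions are from RefSeq on GRCm38.p6 and exon lengths from GENCODE M21 on the same build. The limit for a count of 0 is 3 reads and, like the depth, covers counting error only. Plots used matplotlib 3.10.9 in Python 3.11.15.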

Additional observations from a re-analysis of the deposited data

How the results depend on the processing

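limma called 2 genes of all those tested and 0 of the 10 RNAs, with 1739 genes at an unadjusted p under 0.05. It called 0 genes with quantile scaling (1680 unadjusted) and with scaling to reads other than ribosomal RNA and Malat1 (2475), and edgeR called 0 (1753). DESeq2 called 244 genes and 1 of the 10 RNAs, and the ribosomal RNA covariate gave 436 and 2. With the replicate number as a block, limma called 0 genes (1361 unadjusted) and 0 of the 10. Deviations of same-numbered libraries from their group means correlated at −0.11, −0.019 and −0.087, with no differently numbered pairs set beside them. Whether same-numbered libraries shared a batch was not tested. Leaving out 1 library gave 0 to 1312 genes and 0 to 5 of the 10, the highest counts being those without control replicate 1. 

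Of 169 values for the 10 RNAs under 17 alternatives, 151 kept direction and side of the threshold, 7 kept direction and passed, 0 fell below it, and 11 changed sign. Malat1 (−0.53) and Kcnq1ot1 (−0.37) changed with quantile scaling. Meg3 (−0.028), Rian (0.11) and Gas5 (0.021) changed with the ribosomal RNA covariate. Meg3 (−0.051) and Kcnq1ot1 (−0.20) changed with scaling to reads other than ribosomal RNA and Malat1, which moved the median of all genes to −0.29. H19 (0.63), Mirg (−0.13) and Kcnq1ot1 (−0.020) changed without control replicate 1, and Mirg (−0.13) without Prrx1(R1A)-/- replicate 1. The cause was not tested. Leaving out 1 library gave −0.13 to 0.91 for Mirg, −0.020 to 0.16 for Kcnq1ot1 and −0.72 to 0.63 for H19. The log2 ratio of Rian to Meg3 ranged from −1.11 to −0.16 and that of Mirg to Meg3 from −0.66 to 0.73 when 1 library was left out. Mirg, with 7 to 54 reads per library, was not tested under the filter at 50.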

Other observations

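The tested genes nearest to some of these RNAs had values that the comparisons above do not use. Mrgbp, a subunit of a histone acetyltransferase complex 179 kb from Mir1a-1hg, had 81.4, 103.2 and 196.1 normalized counts in Prrx1(R1A)-/- libraries against 41.5, 28.5 and 50.4 in controls, without overlap (log2 fold change 1.57 ± 0.43, SE; adjusted p = 0.21 by limma). Serpinc1, which encodes antithrombin and lies 32.1 kb from Gas5, had 19.5, 28.8 and 37.4 in Prrx1(R1A)-/- libraries against 1.26, 9.74 and 7.42 in controls. Its log2 fold change was 2.28 ± 0.78 (SE; adjusted p = 0.31 by limma), and its count in control replicate 1 was below the limit for a count of 0, 3.77 there. Of all genes tested, 8.89% had all Prrx1(R1A)-/- libraries above all controls, as Mrgbp and Serpinc1 did. Frmd8, 5.49 kb from Neat1, overlapped between the genotypes, with a log2 fold change of 0.39 ± 0.46. The neighbours of Dnm3os at 244 kb and 308 kb, Pigc and Mettl13, had 0.064 ± 0.55 and 0.034 ± 0.43.

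Without control replicate 1, 9 of the 20 genes of nuclear speckle and splicing proteins passed limma, 7 higher and 2 lower, against 6.1% higher and 3.06% lower of all genes in that fit. Of 27 other imprinted genes, 3 passed in that fit, all higher: Trappc9, Peg3 and Airn.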
